A study of Mesocricetus auratus with 8 samples.

Results

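Potassium, sodium, chloride and TRP channel genes were examined in cultured satellite cells (SCs) of the Syrian hamster before and after exposure to cold. Members were chosen by gene symbol alone, as the Kcn, Scn, Clcn and Trpa, Trpc, Trpm and Trpv families, which gave 118 genes of the 17590 with values. A further 15 listed symbols of these families carried no values and were not analysed here.

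Poly(A) RNA was sequenced from 8 libraries of SCs taken from the hindlimb muscles of wild-type, sexually mature male Slc:Syrian hamsters, purified by preplating and grown on Matrigel in growth medium. The 4 cold libraries came from SCs that spent 48 h in plain growth medium and another 24 h in medium with 100 mM HEPES, all at 37°C, and were then held at 4°C for 24 h. The 4 control libraries came from SCs kept at 37°C and collected before the cold. Their titles place all 4 at day 3, whereas their treatment labels run through 3, 4, 5 and 6 days at 37°C. This disagreement was not resolved. The control labels give no HEPES step. In the paper's design, SCs spent 24 h in HEPES medium at 37°C before the cold, and RNA was taken before and after it. By the protocol, cold SCs were collected 24 h after control SCs, so on the day 3 reading cold and elapsed time cannot be told apart. The libraries are described as biological replicates, but the labels do not say which animal or culture each came from. P-values therefore measure spread among these libraries only. In fits with replicate number as a block, that is the spread left after differences between replicate numbers are removed.

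Ion channels are membrane proteins that let selected ions pass along their electrochemical gradient. Potassium channels mostly hold the membrane potential negative, sodium channels carry the upstroke of the action potential, ClC proteins pass or exchange chloride in the surface and endosomal membranes, and TRP channels admit cations in response to lipids, heat, cold, irritants or calcium. In the muscle lineage, inward rectifier current appears as myoblasts hyperpolarise before they fuse, and the adult fibre depends on a muscle sodium channel and a muscle ClC chloride channel for its excitability.

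Library totals ranged from 16530747 to 18533801 expected counts, and the members together made up 354 to 434 TPM (transcript abundance corrected for gene length and scaled to a fixed total in each library). The first principal component of all genes (54.5% of variance) set libraries 1 and 2 of both groups apart from libraries 3 and 4, and the second (17.9%) separated cold from control. Muscle differentiation markers summed to 13985, 14148, 7102 and 7779 TPM in control libraries 1 to 4 and to 6849, 8059, 4588 and 4380 TPM in the cold, and 17 of the 17 markers with values were called lower in the cold by edgeR with replicate number as a block (4.07% of all genes tested were), against 1 without the block. Myogenic lineage markers were abundant in every library (1976 to 2510 TPM summed), with 3 of 8 called lower in the same fit and 0 without the block. Fibroblast markers summed to 1081 to 1503 TPM in control and 1072 to 1447 TPM in cold libraries, with 0 of 7 called in edgeR and 1 lower at an unadjusted p under 0.05. Endothelial markers summed to at most 4.22 TPM, Schwann cell and neuron markers to at most 3.06 TPM, and immune markers to at most 55.7 TPM in any library, with ranges that overlapped between groups. In bulk RNA of this kind, fewer cells of a type and less RNA per cell cannot be told apart.

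Many of the channel genes were scarce or not detected. Of the 118 members, 6 had no count in any library, 37 had at most 3 counts in every library, and 81 exceeded 3 counts in at least 1 library. At a mean of at least 1 TPM over the 8 libraries, 33 members were expressed, or 28.0% of the members against 65.2% of all genes with values. The threshold of 1 TPM fell among closely spaced members, with Kcnj12 (1.03 TPM), Kcnmb4 (1.04 TPM) and Kcnc1 (1.11 TPM) just inside and Kcnab3 (0.929 TPM), Kcnk6 (0.924 TPM) and Clcn2 (0.905 TPM) just outside. The median of the expressed members was 5.22 TPM, against 19.0 TPM for all genes past the same threshold. The filter on low counts left 53 members for the test of cold against control, 20 of them with a mean under 1 TPM. The 65 members it removed had mean levels of at most 0.341 TPM.

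A few genes made up most of the channel transcript, with 69.6% of the summed member TPM in the 10 most abundant. The endosomal chloride-proton exchanger gene Clcn5 took 9.67%, the channel-kinase gene Trpm7 6.65% and the irritant-gated channel gene Trpa1 6.55%. Kcnn4, a calcium-activated potassium channel gene, took 5.83%. Clcn3 (4.84%), Kcnn3 (3.81%) and Kcnq5 (3.68%) were also among the 10.

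**Figure D1:**
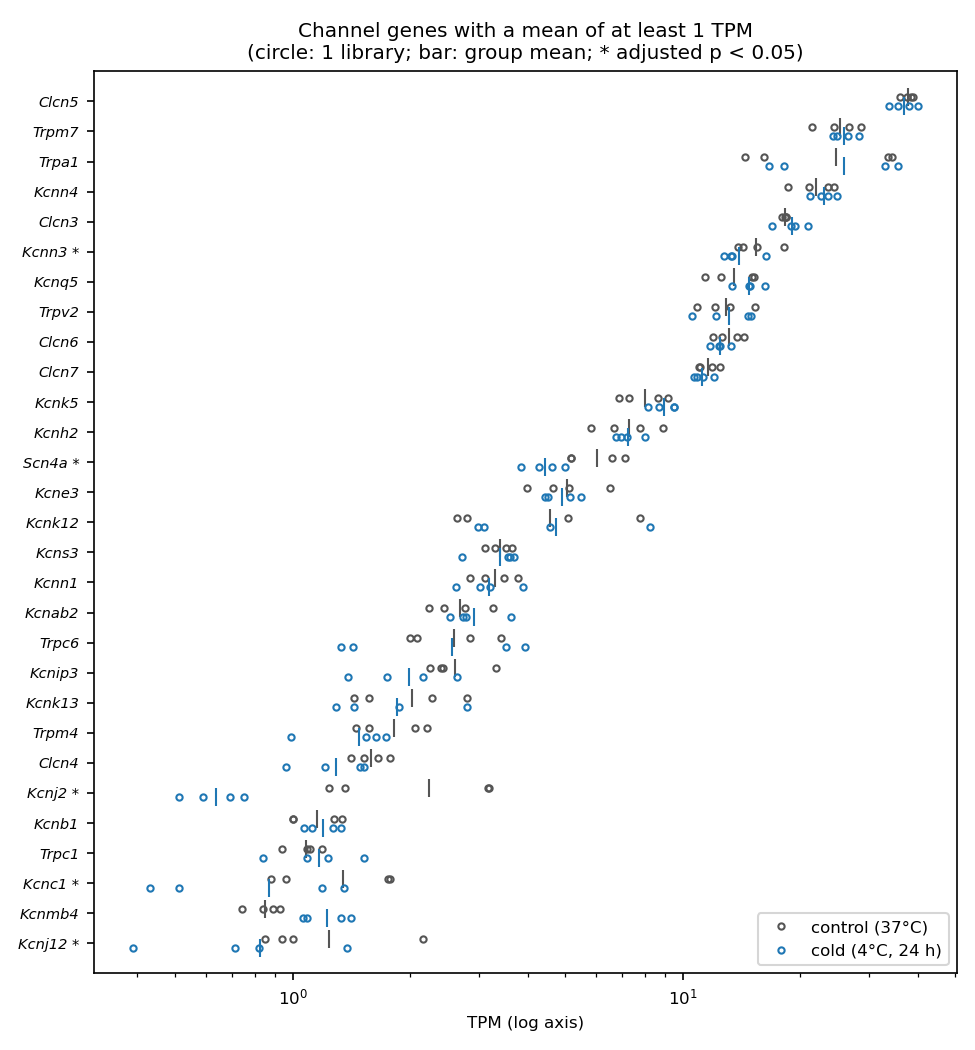
TPM on a log axis of 29 channel genes with a mean of at least 1 TPM, with 1 circle per library (grey, control at 37°C; blue, 24 h at 4°C), a bar at each group mean and an asterisk at an adjusted p under 0.05. Control and cold circles overlapped for all but Kcnj2, Scn4a and Kcnmb4, and levels ran from Clcn5 at a mean of 37.3 TPM down to Kcnj12 at 1.03 TPM.

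To find out which channel genes changed with cold, all 12506 genes past the filter were tested in edgeR with replicate number as a block, and adjusted over all of them. Of the 53 members tested, 7 were called lower in the cold at an adjusted p under 0.05 (13.2%, against 4.07% of all genes tested) and 0 were called higher (1.26% of all genes). The 7 included Kcnj2, Scn3b, Scn4a, Kcnn3, Kcnc1 and Kcnj12. Each was lower in 4 of 4 same-numbered pairs, as were some uncalled members, among them Clcn4 and Kcnip3. The blocked fit itself weighs change within pairs, so this is not separate support. The share of all genes with 4 of 4 pairs in 1 direction was not counted. Kcnj2 and Scn3b also passed a minimum log2 fold change of 1 in size (3.77%, against 0.808% of all genes). At an unadjusted p under 0.05, 13 members were lower (9.76% of all genes were) and 3 were higher (8.48% of all genes were). DESeq2 with the same block called 3 lower (Kcnj2, Scn3b and Scn4a, against 2.56% of all genes) and 0 higher (0.296%). Without the replicate block edgeR called 0 members in either direction, and 0.072% of all genes lower and 0.0% higher, with 6 members lower (4.13% of all genes were) and 1 higher (2.57% of all genes) at an unadjusted p under 0.05. The median log2 fold change over the 53 members was −0.06, against 0.01 over all genes tested, and 60.4% of members had a fitted value below 0, against 46.9% of all genes.

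**Figure D2:**
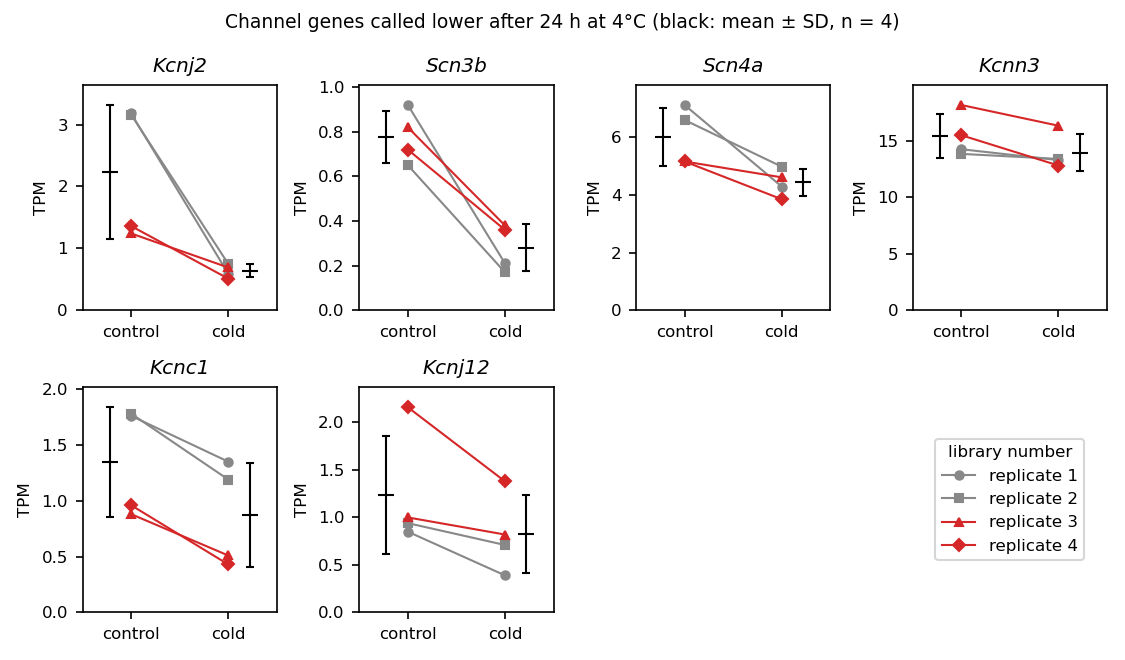
TPM of 6 channel genes called lower in the cold, with a line joining the control and the cold library of the same number (grey, replicates 1 and 2; red, replicates 3 and 4) and the mean ± SD of 4 libraries in black. All lines fall from control to cold, and for Kcnj2, Scn3b and Scn4a the drop in TPM is steeper on average in replicates 1 and 2 than in replicates 3 and 4.

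Among the inward rectifiers, Kcnj2 and Kcnj12 fell. These genes encode strong inward rectifier subunits of a single subfamily, whose current draws the resting potential toward the potassium equilibrium. Kcnj2 (gene ID 101832708) stood at 3.18, 3.16, 1.24 and 1.36 TPM in control libraries 1 to 4 and at 0.59, 0.75, 0.69 and 0.51 TPM in cold libraries 1 to 4. Every cold library was below every control library, and control libraries 1 and 2 were well above 3 and 4. The mean was 2.24 ± 1.08 TPM in control and 0.635 ± 0.106 TPM in cold (SD, n = 4), or 28.3% of control by the edgeR fit (log2 fold change −1.82 ± 0.19 SE, adjusted p = 1.8e-06). The unblocked edgeR fit gave an adjusted p of 0.143, and an exact two-sided permutation test of the TPM gave p = 0.0286, the smallest that 4 against 4 libraries allow. Fitted within replicates 1 and 2 alone the log2 fold change was −2.31, and within replicates 3 and 4 alone it was −1.11, a difference that was not tested.

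Kcnj12 (101837768) was at 0.85, 0.94, 1.00 and 2.16 TPM in control and 0.39, 0.71, 0.82 and 1.38 TPM in cold libraries. The groups overlapped, and replicate 4 was the highest library in both. Its log2 fold change was −0.64 ± 0.17 (SE), with an adjusted p of 0.0349 in edgeR with the block, 0.941 without it, and p = 0.314 in the exact permutation test. The call was lost without replicate 1, 2 or 4 in turn. Kcnj11, the pore subunit of ATP-sensitive potassium channels, was the third tested member of the class, with mean levels of 0.303 TPM (control) and 0.455 TPM (cold). It was higher in 4 of 4 pairs, on 7 to 18 counts per library, but had an adjusted p of 0.380 in edgeR. Kcnj11 passed the cutoff of the low-count filter in 4 cold libraries but only 1 control library. It thus entered the test mainly through the group where it was higher. The remaining 8 inward rectifier genes were not tested, and the summed class level was 3.14 to 4.69 TPM in control and 1.60 to 3.21 TPM in cold libraries.

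Voltage-gated potassium channels were the largest class, with 33 members, of which 11 were tested and 2 called lower. Kcnq5, which encodes a subunit of slowly activating, non-inactivating M-type channels, was not called. It was at 11.4, 12.6, 15.2 and 15.0 TPM in control and 13.4, 14.8, 16.3 and 14.8 TPM in cold libraries (log2 fold change 0.11 ± 0.04 SE, edgeR adjusted p = 0.180). Kcnc1 (101834058), a fast voltage-gated channel gene best known from neurons, was at 1.76, 1.78, 0.88 and 0.96 TPM in control and 1.35, 1.19, 0.51 and 0.43 TPM in cold libraries. The gap between replicate numbers in Kcnc1 exceeded the gap between groups. Its log2 fold change was −0.67 ± 0.18 (SE, edgeR adjusted p = 0.0308, unblocked 0.941, exact permutation p = 0.200) on 15 to 66 counts per library, and the call was lost when any 1 of the 4 replicate pairs was left out. Kcnh2, whose product carries the rapid delayed rectifier current of the heart, averaged 7.29 TPM in control against 7.22 TPM in cold libraries, with a log2 fold change of −0.03 ± 0.08 (SE, edgeR adjusted p = 0.907). Over the 11 tested genes of the class the median log2 fold change was −0.01.

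Calcium-activated potassium channels included 1 called gene, Kcnn3, and the more abundant but uncalled Kcnn4. Kcnn3 (101841744), a small-conductance channel gene, was at 14.2, 13.8, 18.1 and 15.5 TPM in control and 13.3, 13.4, 16.3 and 12.8 TPM in cold libraries. The groups overlapped and the fall was small, to 89.6% of control (log2 fold change −0.16 ± 0.04 SE, edgeR adjusted p = 0.0279, unblocked 0.878, exact permutation p = 0.257). As with Kcnc1, the Kcnn3 call was lost when any 1 replicate pair was left out. Kcnn4, the intermediate-conductance channel, was at 21.1, 23.6, 24.4 and 18.6 TPM in control and 21.2, 22.6, 24.9 and 23.6 TPM in cold libraries, with a log2 fold change of 0.06 ± 0.07 (SE, edgeR adjusted p = 0.713). The large-conductance channel gene Kcnma1 was low in both groups (0.350 TPM at 37°C and 0.358 TPM after cold).

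None of the 6 tested two-pore-domain potassium channels, which carry background leak current, was called in edgeR, and 1 was lower and 1 higher at an unadjusted p under 0.05. The higher one, Kcnk5, was at 7.28, 6.88, 8.65 and 9.19 TPM in control and 8.69, 8.13, 9.49 and 9.47 TPM in cold libraries. It was higher in 4 of 4 pairs, with overlapping groups (log2 fold change 0.15 ± 0.07 SE, edgeR adjusted p = 0.244). Kcnk12 was at 2.64, 2.80, 7.79 and 5.08 TPM in control and 3.09, 2.98, 8.24 and 4.58 TPM in cold libraries, so that its level differed far more between replicate numbers than between groups (log2 fold change 0.04, edgeR adjusted p = 0.834).

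The potassium channel auxiliary subunits, which assemble with the pore and alter its gating or traffic, had 8 tested genes and no call in edgeR, with 1 lower and 1 higher at an unadjusted p under 0.05. The higher one was Kcnmb4 (101841647), a beta subunit of large-conductance calcium-activated channels, the 1 member whose cold libraries all lay above the control libraries (2.27% of all genes tested did so). It was at 0.84, 0.74, 0.89 and 0.93 TPM in control and 1.06, 1.09, 1.41 and 1.33 TPM in cold libraries. Its log2 fold change was 0.51 ± 0.19 (SE), with an edgeR adjusted p of 0.149, and 0.557 without the block. The exact permutation test gave p = 0.0286, which only restates the lack of overlap by which Kcnmb4 was chosen. By contrast, Kcnj2, Scn3b and Scn4a were the 3 members whose cold libraries all lay below the control libraries (5.66% of the 53 members, against 2.41% of all genes). The most abundant auxiliary genes were Kcne3 (4.98 TPM, log2 fold change −0.05, edgeR adjusted p = 0.903) and Kcnab2 (2.80 TPM, log2 fold change 0.11, edgeR adjusted p = 0.638).

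**Figure D3:**
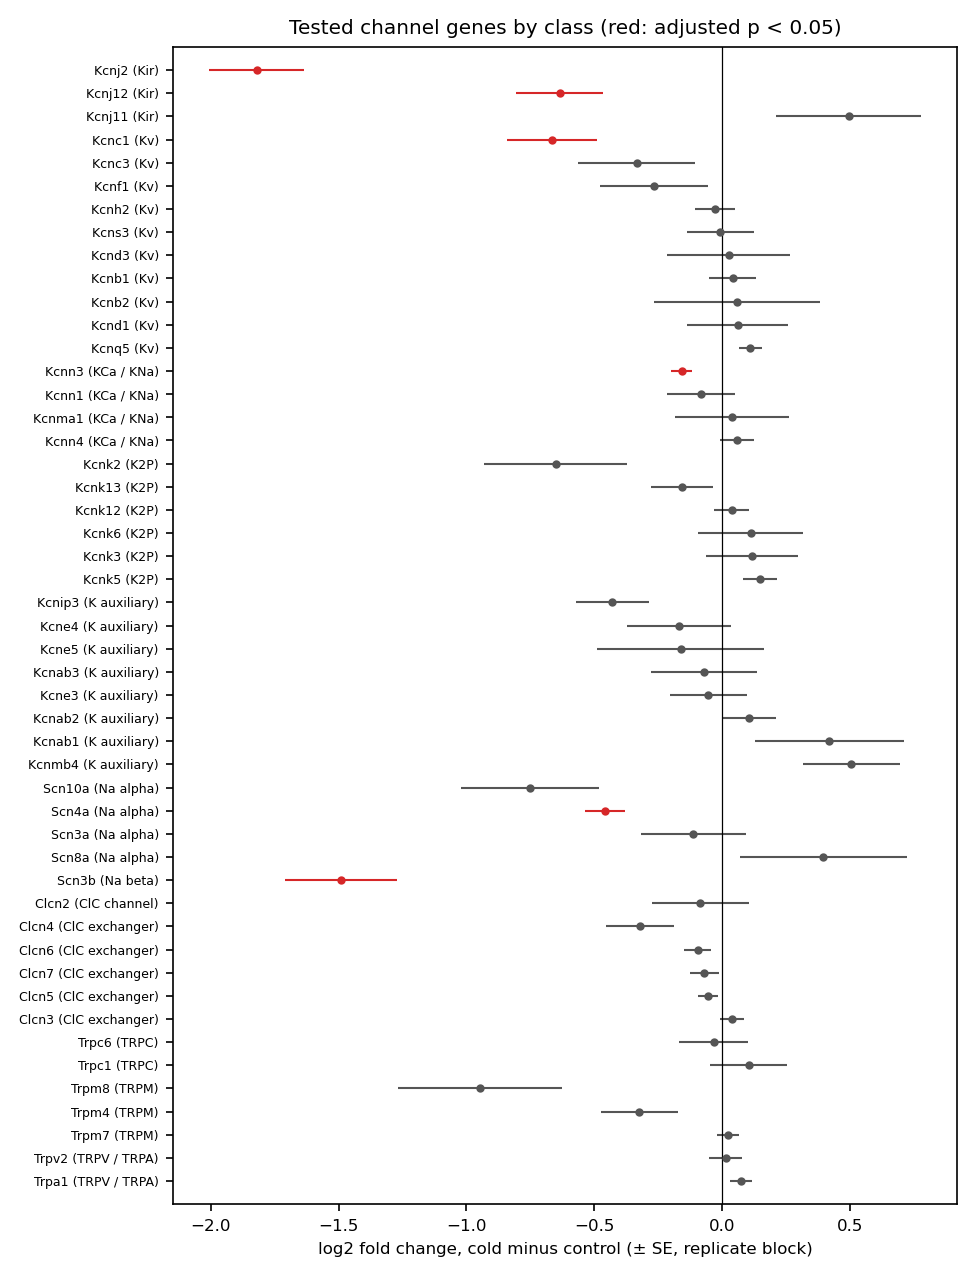
Log2 fold change of cold over control (± SE, edgeR with replicate block) of 49 tested channel genes, ordered by class, with the 6 genes at an adjusted p under 0.05 in red. Kcnj2 (−1.82) and Scn3b (−1.49) lie farthest from 0, while the abundant Trpm7, Trpa1 and Clcn5 lie within 0.1 of it.

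Of the 5 tested sodium channel alpha subunit genes, 1 was called lower. Scn4a (101842866) encodes the alpha subunit that carries the action potential of adult skeletal muscle, and it stood at 7.12, 6.60, 5.16 and 5.16 TPM in control and 4.29, 4.98, 4.61 and 3.85 TPM in cold libraries. In TPM, all cold libraries were below all control libraries. The mean fell from 6.01 ± 1.00 to 4.43 ± 0.480 TPM, to 72.8% of control (log2 fold change −0.46 ± 0.08 SE, edgeR adjusted p = 0.000833, unblocked 0.463, exact permutation p = 0.0286). The exact permutation test of the normalized counts in place of TPM gave p = 0.0857. Within replicates 1 and 2 the log2 fold change was −0.63, and within replicates 3 and 4 it was −0.28.

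Of the beta subunits, which modulate the gating and surface expression of sodium channels, 2 were tested and 1 was called. Scn3b (101844105) was at 0.92, 0.65, 0.82 and 0.72 TPM in control and 0.21, 0.17, 0.38 and 0.36 TPM in cold libraries, without overlap, on 11 to 57 counts per library. It fell to 35.6% of control (log2 fold change −1.49 ± 0.22 SE, edgeR adjusted p = 0.000149, unblocked 0.0997, exact permutation p = 0.0286), with −2.06 within replicates 1 and 2 and −1.06 within replicates 3 and 4.

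All 5 ClC exchanger genes of endosomes and lysosomes (Clcn3 to Clcn7) were expressed and tested, and none was called in edgeR, with Clcn4, the least abundant at a mean of 1.44 TPM, lower at an unadjusted p under 0.05. Clcn5 was at 36.0, 37.6, 38.5 and 38.9 TPM in control and 38.0, 40.0, 35.6 and 33.8 TPM in cold libraries, a log2 fold change of −0.05 ± 0.04 (SE, edgeR adjusted p = 0.533). Clcn3 averaged 18.3 ± 0.200 TPM before and 19.0 ± 1.64 TPM after cold (edgeR adjusted p = 0.709). Clcn1, the chloride channel of the adult muscle fibre, had at most 4 counts in any library and was not tested. Clcn2, a broadly expressed surface channel, averaged 0.928 TPM before and 0.883 TPM after cold (edgeR adjusted p = 0.870).

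No TRP channel was called in edgeR among the 8 tested, with 2 TRPM genes lower at an unadjusted p under 0.05 and none called by DESeq2. Trpm7, a cation channel fused to a kinase that passes magnesium and calcium, was at 21.5, 24.5, 26.7 and 28.6 TPM in control and 24.3, 24.8, 28.2 and 26.5 TPM in cold libraries (log2 fold change 0.02 ± 0.04 SE, edgeR adjusted p = 0.830). Trpa1, a channel opened by electrophilic irritants and in some species linked to noxious cold or heat, was at 16.2, 14.4, 34.3 and 33.7 TPM in control and 18.2, 16.7, 35.6 and 32.9 TPM in cold libraries. The Trpa1 libraries followed replicate number and not temperature (log2 fold change 0.07 ± 0.04 SE, edgeR adjusted p = 0.405).

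Trpv2, a calcium-permeable channel gene, averaged 12.9 ± 1.90 TPM before and 13.1 ± 2.12 TPM after cold (edgeR adjusted p = 0.945). The diacylglycerol-activated channel gene Trpc6 was at 3.41, 2.85, 2.0 and 2.08 TPM in control and 3.94, 3.53, 1.33 and 1.43 TPM in cold libraries (edgeR adjusted p = 0.937), so its cold libraries were above their partners in replicates 1 and 2 and below them in replicates 3 and 4. Trpm4, a calcium-activated channel for monovalent cations, averaged 1.82 ± 0.369 TPM before and 1.48 ± 0.333 TPM after cold (log2 fold change −0.32 ± 0.15 SE, edgeR adjusted p = 0.261).

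Trpm8, the receptor for cool temperature and menthol, is given because of its role and was singled out after its values were seen. It was scarce, at 0.37, 0.35, 0.06 and 0.08 TPM in control and 0.16, 0.17, 0.06 and 0.06 TPM in cold libraries, on 4 to 24 counts each. Its log2 fold change was −0.95 ± 0.32 (SE, edgeR adjusted p = 0.105), and replicates 3 and 4 were near the floor in both groups. The heat receptor gene Trpv1 had at most 3 counts in any library.

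The libraries also differed by replicate number, which the groups do not explain, over all genes and among the channel genes. In controls 1 to 4 the treatment labels (3, 4, 5 and 6 days at 37°C) run with replicate number. The part of labelled days in this difference was not tested. In 16 of the 53 tested members (30.2%, against 23.5% of all genes tested) replicates 3 and 4 of both groups all lay above replicates 1 and 2, and in 4 members (7.55%, against 9.09% of all genes) they all lay below. Trpa1 was 2.08 times and Kcnk12 2.23 times as high in replicates 3 and 4 as in replicates 1 and 2. In the other direction stood Kcnc1 (0.457 times), Trpc6 (0.498 times), Kcnk13 (0.590 times) and Trpm8 (0.248 times). The summed level of the differentiation markers was also lower in replicates 3 and 4 of each group, and these markers fell in the cold together with the called channel genes. Their part in the channel results was not tested.

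**Figure D4:**
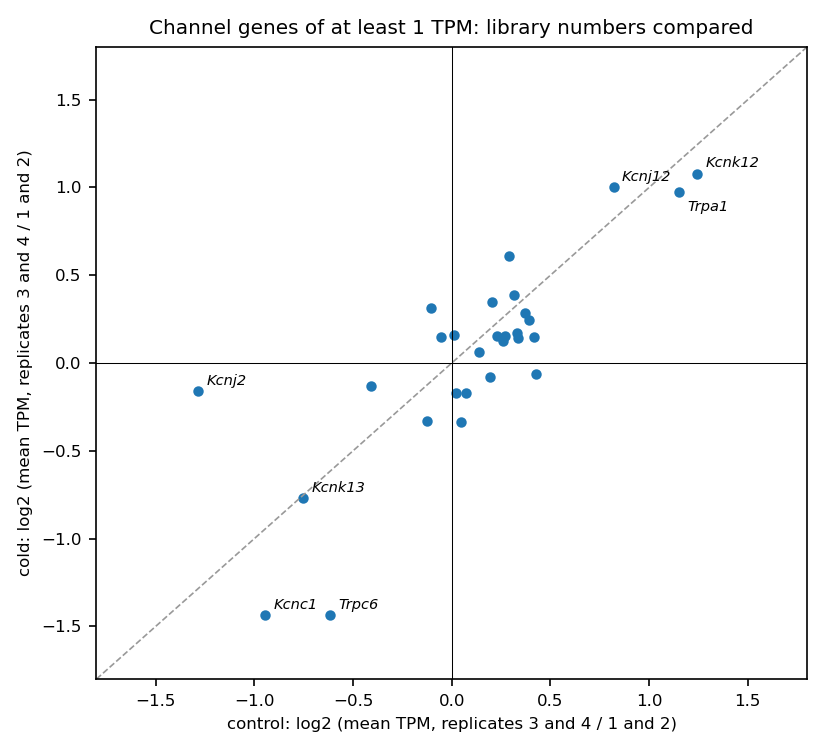
Log2 ratio of the mean TPM of replicates 3 and 4 to that of replicates 1 and 2 for 29 channel genes with a mean of at least 1 TPM, in control (x axis) and in cold libraries (y axis), with the dashed line at equal ratios. Trpa1, Kcnk12 and Kcnj12 lie high and Kcnc1, Trpc6 and Kcnk13 low in both groups, whereas Kcnj2 lies low in control and near 0 in cold libraries.

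For comparison, 53 ion channel and channel-associated genes outside these symbol families, such as the Hcn, Ano, Lrrc8, Clic, Orai and Piezo genes, were taken from a list of 57, of which they were the ones with values. Of the 36 that passed the filter on low counts, edgeR called 0 lower and 0 higher with the block (4.07% and 1.26% of all genes), 2 were lower and 2 higher at an unadjusted p under 0.05 (9.76% and 8.48% of all genes), and the median log2 fold change was 0.03.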

How the data were processed

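The authors deposited 1 table of the series with expected counts, TPM and normalized counts for each of 8 libraries from paired-end reads of 150 bp. The expected counts deposited by the authors were not normalized, and 96.4 to 96.6% of values per library were whole to within 1e-06. The TPM deposited by the authors were scaled within each library. The normalized counts deposited by the authors are a signal scaled by 1 factor per library and served only as an alternative. The submitters' processing notes name HISAT and HISAT2, while the counting program, genome build and annotation are not given in the sources used here. All 118 member identifiers and symbols were found in a RefSeq table of the hamster, used for names only. No sequence features were analysed here.

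Rounded expected counts entered edgeR 4.0.16 (R 4.3.3; filterByExpr with a cutoff of 0.5745 CPM, TMM, quasi-likelihood F test, replicate number as a block), with Benjamini-Hochberg adjustment over 12506 genes. Percent of control was derived from the fitted log2 fold change, and SE is its size divided by the square root of F. The filter kept 46 of the 53 members through all 8 libraries and none through 1 group only. The exact permutation test was two-sided over 70 arrangements of TPM. Groups that do not overlap always give its smallest p. The scripts were tested on simulated data. Neither labels nor methods say what a replicate number marks, though the treatment labels of controls 1 to 4 give 3, 4, 5 and 6 days at 37°C. Deviations from the group means of same-numbered libraries correlated at 0.61 to 0.66, the highest value for every library, though control 2 with cold 1 (0.59) and control 1 with cold 2 (0.57) came close. The numbers were taken to pair the libraries, since every same-numbered correlation was over 0.1. Control 3 with cold 4 (0.47) and control 4 with cold 3 (0.43) passed that cutoff too. The correlations set libraries 1 and 2 apart from 3 and 4, but the cutoff does not by itself fix the pairing within each set.

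Named genes were every called member, the 2 most abundant members per class, Kcnj2, and members of at least 1 TPM whose groups did not overlap. Kcnj11, Kcnh2, Kcnma1, Kcnk13, Clcn4, Trpm8, Trpv1 and Kcnip3 were added after their values were seen. Some members are counted but not reported here by name, and were left out of the plots. The members, classes and lists were chosen with earlier results of these data known. DESeq2 1.42.0, limma 3.58.1 on log2(TPM + pseudocount), other normalization, filters and left-out replicates were alternatives. Reads carry no molecular identifiers, so counts of 3 or fewer, taken as the floor, cover counting error only. Plots used matplotlib 3.10.9 (Python 3.11.15).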

Additional observations from a re-analysis of the deposited data

Results flagged for a closer look

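Among the named members, 3 group values stood apart from the other 3 libraries of their group by Dixon's test at the 95% level, which chance flags in about 1 in 20 groups. Kcnj12 was at 2.16 TPM in control replicate 4, against 0.85 to 1.00 TPM in the others. Kcnn3 was at 16.31 TPM in cold replicate 3, against 12.79 to 13.37 TPM. Clcn1 was at 0.07 TPM in control replicate 4 and at 0 in the other control libraries, a difference of at most 4 counts. In total 3 of 44 groups stood out in this way, where chance would give 2.2. A group with 3 values at 0 and 1 above it, such as Clcn1 in control, is always flagged. The chance figure does not hold for such a group.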

How the results depend on the processing

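The 7 lower calls rested on the pairing by replicate number: without the replicate block 0 were called, and 0 to 1 when each library was also left out (Kcnj2 without control replicate 3, where 0.357% of all genes were called lower, against at most 0.0318% without any other library). With the block, leaving out 1 replicate pair left 4 to 7 lower calls (2.71 to 4.88% of all genes). Kcnj2, Scn3b and Scn4a were called each time, Kcnc1 and Kcnn3 never, and Kcnj12 only without replicate 3. Without replicate 4, Kcnip3 and Trpm4 were among the genes called in addition. DESeq2 called 3, limma on log2(TPM + pseudocount) 2 (1.82 to 1.95% of all genes) at each pseudocount of 0.01, 0.1 and 1 (Kcnj2 and Scn3b), and a log2 fold change of at least 1 left 2. Replicates 1 and 2 alone gave 12 lower (9.43% of all genes) and 1 higher call (Kcnq5, 7.72%), and replicates 3 and 4 alone 3 lower (2.29%), in fits with 1 residual degree of freedom. Other normalization or filters gave 7 to 8 (3.98 to 4.17% of all genes). The 6 of these genes described above had a negative log2 fold change in all 14 alternatives with the replicate term and all 9 without it. Over the 12 with the replicate term and at least 3 pairs, adjusted p by edgeR, DESeq2 or limma was at most 0.0169 for Kcnj2 and at most 0.0392 for Scn3b. The exact permutation p of Scn4a was 0.0857 with normalized counts. Expressed members numbered 65 at a mean of at least 0.1 TPM, 81 at over 3 counts in any library, 53 by the edgeR filter and 41 at 0.5 TPM. Counts were low for Scn3b (11 to 57 per library) and Kcnc1 (15 to 66), the effect of depth was not tested, and the 65 members under the filter were not compared.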
